A study of Mus musculus with 6 samples.

Results

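The genes described here are 10 of the IL-6 family cytokine pathway in hind limb muscle, out of 20632 genes in the count table. They are the receptor chains Il6st, Il6ra, Lifr and Osmr, the transcription factor Stat3, the phosphatase Ptpn11, the suppressors Socs1 and Socs3, and Bcl3 and Bcl6, which STAT3 is known to regulate. All 10 had a row in the table and all 10 passed the filter on low counts that left 12116 genes. The set was selected on Socs1 and Socs3, which were chosen by their genotype difference in these same mice, and the other 8 genes were added for their place in the pathway. The values of Socs1 and Socs3 are therefore a description with no test.

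RNA was sequenced from whole hind limb muscles of unexercised male C57BL/6 mice aged 3 months. Baf155ΔMF mice carry floxed Baf155 alleles and a Cre transgene under the muscle creatine kinase promoter, which is active in muscle fibers and also in heart, and the sample labels give their genotype as Baf155 -/-. Baf155WT mice carry the same floxed alleles without Cre and are labelled wild type. There were 3 mice per genotype with 1 library each, and the other cells of the muscle were not targeted by design. In bulk RNA, fewer cells of a type and less RNA per cell cannot be told apart.

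Most cytokines of the IL-6 family bind a specific receptor chain and then signal through gp130, the protein of Il6st. Janus kinases bound to gp130 phosphorylate STAT3, which enters the nucleus and induces, among others, its own inhibitors. SOCS3 binds gp130 and blocks the kinases, and SOCS1 blocks the kinases directly. Muscle fibers are known both to release IL-6 and to respond to it and to related cytokines.

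Total counts per mouse were between 8426022 and 12469335. Smarcc1, the gene of BAF155, was expressed at 23.4, 19.5 and 17.0 CPM in Baf155WT mice and at 7.05, 6.54 and 7.72 CPM in Baf155ΔMF mice, so the labels match the targeted gene. CPM are counts divided by the library size and given per 1e6 counts, and library sizes were scaled by the trimmed mean of M-values (TMM). Sample titles began with MS13 for Baf155WT mouse 1 and Baf155ΔMF mice 1 and 2, with MS15 for Baf155WT mice 2 and 3, and with MS14 for Baf155ΔMF mouse 3. What the prefix stands for was not given in the sources used here, and outside MS13 it cannot be told apart from genotype. Baf155WT mouse 1 stood apart from the other Baf155WT mice. On the first principal component of log2 CPM over all genes tested, which held 43.3% of the variance, it lay at -13.4, while Baf155WT mice 2 and 3 lay at 25.0 and 22.5 and the Baf155ΔMF mice lay at -17.1, -15.4 and -1.56. For this reason the results below are also given without Baf155WT mouse 1 where it bears on them.

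Binding sites of STAT proteins have the palindromic core TTCNNNGAA, where N is any base, so that a search of one strand covers both. The windows from 250 bases before to 50 bases after the RefSeq start sites (GRCm38.p6) were searched for it. All 10 genes had a window, 12 windows in total, and 3 windows of 2 genes, Socs3 and Bcl6, held the core. Among all 32851 windows 2726 held it (8.30%, exact binomial 95% confidence interval 8.002 to 8.602%). The stricter form TTCCNGGAA, which is contained in the core, was in 377 windows (1.15%). The 250 bases before the start are shown 5′ to 3′ for the 2 suppressors by which the set was selected and for the second Bcl6 start, the window with the most matches. Capitals mark each TTCNNNGAA. The regions are chr16:10785537-10785786 for Socs1, chr11:117969367-117969616 for Socs3 and chr16:23981284-23981533 for Bcl6, all on the minus strand.
Socs1: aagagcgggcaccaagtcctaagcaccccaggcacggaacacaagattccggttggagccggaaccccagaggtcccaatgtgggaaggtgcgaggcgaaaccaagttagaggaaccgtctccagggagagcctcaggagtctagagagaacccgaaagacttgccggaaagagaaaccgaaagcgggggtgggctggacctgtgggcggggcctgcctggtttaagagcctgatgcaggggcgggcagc
Socs3: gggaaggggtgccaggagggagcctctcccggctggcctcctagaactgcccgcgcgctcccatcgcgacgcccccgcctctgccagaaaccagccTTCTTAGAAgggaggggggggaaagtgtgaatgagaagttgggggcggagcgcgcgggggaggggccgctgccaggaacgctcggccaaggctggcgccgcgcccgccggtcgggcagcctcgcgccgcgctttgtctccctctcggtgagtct
Bcl6: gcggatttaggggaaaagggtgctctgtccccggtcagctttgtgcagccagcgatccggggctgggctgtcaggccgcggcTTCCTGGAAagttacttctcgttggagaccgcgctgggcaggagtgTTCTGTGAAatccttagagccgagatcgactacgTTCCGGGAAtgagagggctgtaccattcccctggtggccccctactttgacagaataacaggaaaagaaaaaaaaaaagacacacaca
Socs1 had no match in its window. Socs3 had 1 match, TTCTTAGAA, which begins 154 bases before the start, and its RefSeq start lies 681 bases inside the outermost 5′ end in the GENCODE M21 annotation. The start of Osmr lies 656 bases inside that end, and those of the Lifr windows 38958 and 49928 bases inside it. The region at the outermost 5′ end of Lifr was therefore not searched. The second Bcl6 window had 3 matches, of which TTCCTGGAA and TTCCGGGAA also follow the stricter form. It lies within the Bcl6 gene, 7569 bases inside the outermost 5′ end, and the window at that 5′ end had 1 match, TTCTCAGAA. A match is a sequence only, and no binding was measured in these libraries.

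Socs1 and Socs3 were lower in Baf155ΔMF mice, whereas edgeR called no difference for the receptors, Stat3 and the other genes of the set. Socs1 (chr16:10782240-10785536, minus strand) was at 7.97, 7.73 and 3.30 CPM in Baf155WT mice and at 1.17, 0.831 and 2.22 CPM in Baf155ΔMF mice. The genotypes did not overlap. Mean expression was 6.33 ± 2.63 CPM in Baf155WT mice and 1.41 ± 0.725 CPM in Baf155ΔMF mice (SD, n = 3), a log2 fold change of -2.18 with a standard error of 0.41, or 0.220 times the Baf155WT level. These levels rest on 82, 101 and 37 counts against 11, 8 and 19 counts.

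Socs3 (chr11:117966079-117970047, minus strand) was at 16.4, 10.1 and 6.78 CPM in Baf155WT mice and at 3.52, 4.36 and 5.38 CPM in Baf155ΔMF mice, again without overlap. Its means were 11.1 ± 4.90 and 4.42 ± 0.929 CPM (SD, n = 3), a log2 fold change of -1.32 with a standard error of 0.30, or 0.400 times the Baf155WT level. For both genes Baf155WT mouse 3 was the lowest of its genotype and Baf155WT mouse 1 the highest. The gap between the nearest mice of the 2 genotypes was therefore small, with 3.30 against 2.22 CPM for Socs1 and 6.78 against 5.38 CPM for Socs3.

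Both genes also varied more between mice of one genotype than most genes did. The coefficient of variation of Socs1 was 41.5% in Baf155WT mice and 51.4% in Baf155ΔMF mice, where counting error alone gives 11.7% and 28.1%. For Socs3 it was 44.1% and 21.0%, where counting error gives 8.92% and 15.7%. The biological coefficient of variation estimated by edgeR was 0.275 for Socs1 and 0.228 for Socs3, at percentiles 98.5 and 97.0 of all genes tested. Lifr, with 0.082 at percentile 7.63, was the steadiest of the set.

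The difference in Socs1 and Socs3 was present with and without Baf155WT mouse 1. Without it, the log2 fold change was -2.01 for Socs1 and -0.95 for Socs3. Among the 3 MS13 mice alone, where 1 Baf155WT mouse stands against 2 Baf155ΔMF mice, it was -2.99 for Socs1 and -2.06 for Socs3. The direction was kept in all 13 alternative fits that tested Socs1 and in all 14 that tested Socs3. Since both genes were chosen by this contrast in these mice, a kept direction is a description and no independent support.

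**Figure D1:**
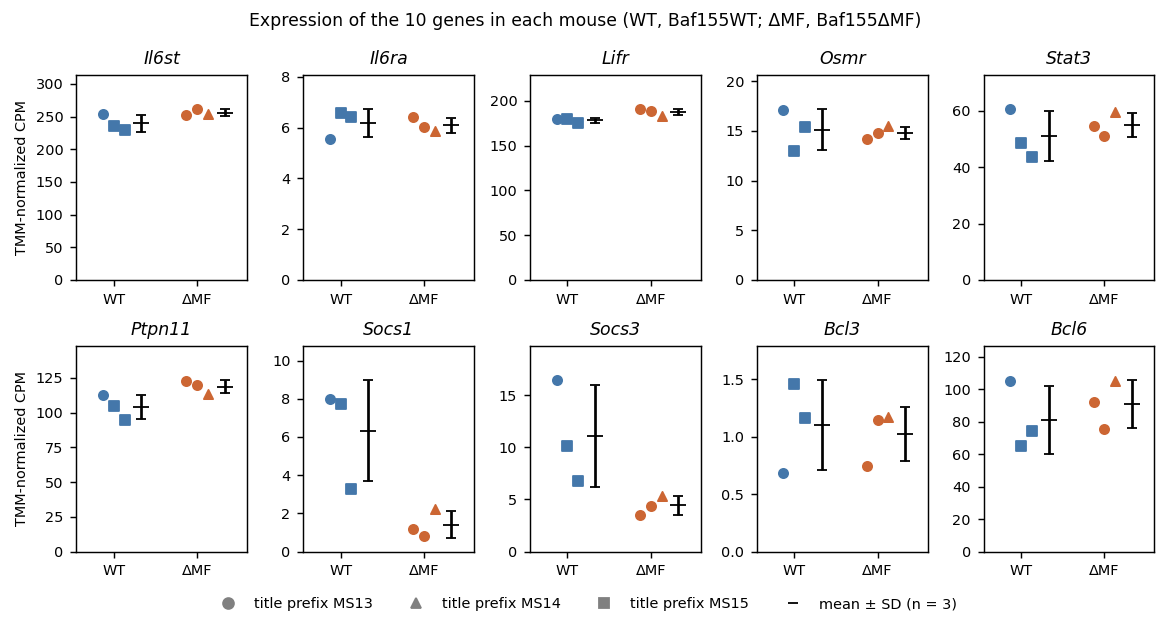
Expression of the 10 genes (y axis, TMM-normalized CPM, from 0) in each Baf155WT (WT, blue) and Baf155ΔMF (ΔMF, orange) mouse, with the shape of a point giving the title prefix and the black bar the mean ± SD of 3 mice. Socs1 and Socs3 do not overlap between genotypes and are lower in Baf155ΔMF mice, and Lifr and Ptpn11 do not overlap and are higher by 0.07 and 0.19 on the log2 scale.

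gp130 itself, the signal chain that nearly all cytokines of the family share, was at nearly the same level in both genotypes. Il6st (chr13:112464070-112510086, plus strand) was at 253.8, 236.2 and 228.7 CPM in Baf155WT mice and at 252.0, 261.9 and 253.4 CPM in Baf155ΔMF mice. The ranges overlapped, since Baf155WT mouse 1 lay above 2 of the 3 Baf155ΔMF mice. The means of 239.6 ± 12.9 and 255.8 ± 5.34 CPM (SD, n = 3) gave a log2 fold change of 0.09 with a 95% confidence interval of -0.10 to 0.29 (edgeR quasi-likelihood test, Benjamini-Hochberg adjusted p = 0.758 over all 12116 genes).

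Lifr, the receptor chain for leukemia inhibitory factor (chr15:7090614-7197489, plus strand), was at 179.7, 179.6 and 175.0 CPM in Baf155WT mice and at 190.3, 188.7 and 183.4 CPM in Baf155ΔMF mice. Every Baf155ΔMF mouse was above every Baf155WT mouse. The spread within genotypes was narrow, with means of 178.1 ± 2.69 and 187.4 ± 3.62 CPM (SD, n = 3), but the log2 fold change was only 0.07 (95% confidence interval -0.11 to 0.26) and did not pass the edgeR test (adjusted p = 0.803).

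Il6ra and Osmr encode the receptor chains for IL-6 and oncostatin M. Il6ra (chr3:89864059-89913196, minus strand) was at 5.54, 6.58 and 6.42 CPM in Baf155WT mice and at 6.41, 6.02 and 5.85 CPM in Baf155ΔMF mice. The Baf155ΔMF values lay inside the Baf155WT range, and the log2 fold change was -0.02 (95% confidence interval -0.37 to 0.32, edgeR adjusted p = 0.970). Osmr (chr15:6813577-6874969, minus strand) was at 17.1, 12.9 and 15.3 CPM in Baf155WT mice and at 14.2, 14.7 and 15.4 CPM in Baf155ΔMF mice. These values overlapped as well, with a log2 fold change of -0.03 (95% confidence interval -0.31 to 0.25, edgeR adjusted p = 0.957).

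Stat3, the transcription factor activated by gp130 (chr11:100885098-100939540, minus strand), was at 60.7, 48.7 and 43.6 CPM in Baf155WT mice and at 54.8, 51.0 and 59.5 CPM in Baf155ΔMF mice. All 3 Baf155ΔMF values lay within the Baf155WT range. The log2 fold change was 0.11 (95% confidence interval -0.16 to 0.38, edgeR adjusted p = 0.802), and it was -0.20 among the MS13 mice and 0.25 without Baf155WT mouse 1. These are transcript levels, and the phosphorylation that activates the protein is not seen in RNA.

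Ptpn11 encodes SHP2, a phosphatase that binds gp130 at the same site as SOCS3 and couples it to the ERK pathway. It (chr5:121130533-121191397, minus strand) was at 112.7, 104.6 and 94.9 CPM in Baf155WT mice and at 122.6, 119.8 and 113.8 CPM in Baf155ΔMF mice. Every Baf155ΔMF mouse was higher, though Baf155ΔMF mouse 3 exceeded Baf155WT mouse 1 by little. The means of 104.1 ± 8.94 and 118.7 ± 4.50 CPM (SD, n = 3) gave a log2 fold change of 0.19 (95% confidence interval -0.01 to 0.39) that did not pass the edgeR test (adjusted p = 0.622).

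Bcl3 and Bcl6 are transcriptional regulators known as STAT3 targets in other tissues. Bcl6 (chr16:23965052-23988852, minus strand) was at 104.8, 64.8 and 74.1 CPM in Baf155WT mice and at 91.9, 75.5 and 104.8 CPM in Baf155ΔMF mice. Its log2 fold change was 0.16 (95% confidence interval -0.21 to 0.54, edgeR adjusted p = 0.789), and it was -0.32 among the MS13 mice and 0.39 without Baf155WT mouse 1. Bcl3 (chr7:19808462-19822770, minus strand) was close to the lower limit of measurement, with 7, 19 and 13 counts in Baf155WT mice and 7, 11 and 10 counts in Baf155ΔMF mice. At 0.680, 1.45 and 1.16 CPM against 0.747, 1.14 and 1.17 CPM it overlapped fully (log2 fold change -0.14, 95% confidence interval -0.98 to 0.71, edgeR adjusted p = 0.928). Differences within this wide interval could not be told from 0 in these mice.

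The 95% confidence intervals of 7 of the 8 other genes, all but Bcl3, lay between -0.37 and 0.54 on the log2 scale. That of Bcl3 was wider, from -0.98 to 0.71. Calls are counted over these 8 genes only, since Socs1 and Socs3 had been chosen by this contrast. At an adjusted p under 0.05, edgeR called 0 of the 8, where it called 3 of all genes tested (0.0248%). At an unadjusted p under 0.05 it also called 0 of the 8, where the share of all genes was 7.95%. DESeq2 (0.135% of all genes) and limma-voom (0.0413%) called 0 of the 8 at an adjusted p under 0.05, and 0 at an unadjusted p under 0.05. Without Baf155WT mouse 1, edgeR called 955 genes (7.77%) and again 0 of the 8. In that fit 3 of the 8 had an unadjusted p under 0.05, as did 2923 of all 12288 genes tested there. The 3 were Stat3 at 0.25, Ptpn11 at 0.25 and Bcl6 at 0.39 (adjusted p = 0.143, 0.101 and 0.0693). With the title prefix as a covariate it called 16 genes (0.132%) and 0 of the 8, of which 1 had an unadjusted p under 0.05. This gene was Bcl6, at -0.33 with the covariate, opposite in sign to its 0.39 without Baf155WT mouse 1. None of the 8 was past the limits of the study, where 135 genes were (1.11%). These limits are taken here as an unadjusted p under 0.01 with a fold under 0.7 or over 1.4. The study states the fold limits for its list of changed genes, while the p limit is a line in its volcano plot. The genotypes did not overlap for 2 of the 8, Lifr and Ptpn11, where they did not overlap for 10.8% of all genes. The median log2 fold change of the 8 was 0.08, beside -0.00 for all genes tested.

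**Figure D2:**
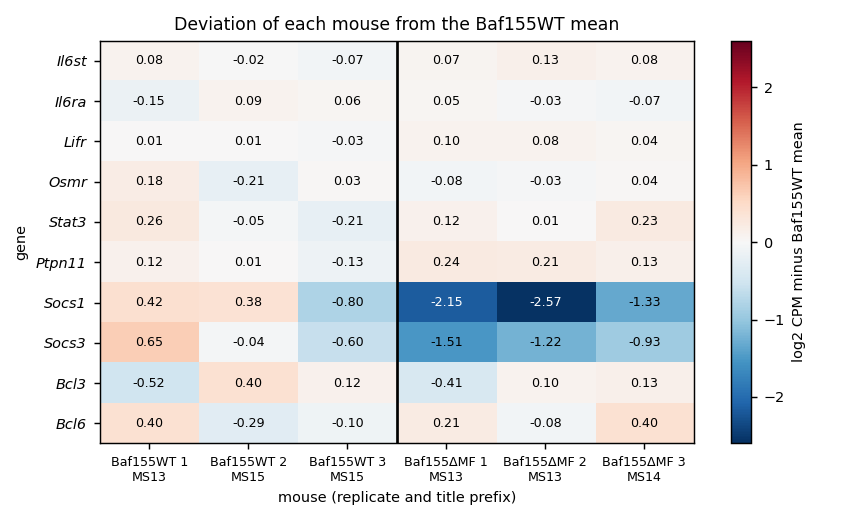
Log2 CPM of each gene (rows) in each mouse (columns) minus the mean of the 3 Baf155WT mice, from blue (lower) to red (higher), with the value printed in each cell. Socs1 lies between -2.57 and -1.33 and Socs3 between -1.51 and -0.93 in the 3 Baf155ΔMF mice, while no value of another gene in these mice lies beyond -0.41 or 0.40.

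Seen mouse by mouse, Stat3 and Socs3 had the same order among Baf155WT mice, with mouse 1 highest and mouse 3 lowest, and Il6st and Ptpn11 had that order too. In Baf155ΔMF mice Stat3 was at a level within the Baf155WT range while Socs3 was below it in each of the 3. Baf155ΔMF mouse 3, which had the highest Socs1 and Socs3 of its genotype, also had the highest Stat3, Bcl6 and Osmr, and it had the lowest Il6ra, Lifr and Ptpn11.

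To compare levels between genes, CPM were divided by the length of all exons in GENCODE M21. On this scale of CPM per kilobase the order in Baf155WT mice was Il6st at 21.6, Lifr at 16.5, Ptpn11 at 13.9, Bcl6 at 12.1, Stat3 at 5.36, Socs3 at 3.84, Socs1 at 2.18, Osmr at 1.25, Il6ra at 0.715 and Bcl3 at 0.444. The shared chain gp130 and the LIF receptor chain were thus the most abundant of the set, and the chain specific for IL-6 was among the least. Ranges over the 3 mice overlapped between Ptpn11 and Bcl6, between Stat3 and Socs3, between Socs3 and Socs1 and between Socs1 and Osmr, and these neighbours did not differ beyond their spread. In Baf155ΔMF mice Socs1 stood in the place before the last, with 0.485 CPM per kilobase, below Osmr at 1.22 and Il6ra at 0.705. Its range of 0.286 to 0.764 there overlapped those of Il6ra and Bcl3, so these places did not differ beyond the spread, and the ranges of Ptpn11 and Bcl6 and of Socs3 and Osmr overlapped too. The Socs3 level there was 1.53 CPM per kilobase, and Stat3 at 5.78 no longer overlapped it.

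Genes with a profile most like that of Socs1 and of Socs3 were ranked by Pearson's r of log2 CPM over the 6 mice, which share their libraries and genotypes. For Socs1 these were Apmap (0.993), Narfl (0.984), Dus3l (0.983), Runx1 (0.977) and Zfyve19 (0.977). For Socs3 they included Itgb3bp (0.976), Pea15a (0.975), Syp (0.973) and Enc1 (0.962). None of these genes belongs to the set. Each of them differed less between genotypes than the SOCS gene they resembled, with log2 fold changes of -0.19 for Apmap, -0.42 for Runx1 and -0.37 for Syp.

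The rest of the pathway was read from 8 lists with 66 genes, of which 52 passed the filter. edgeR called 0 of the 52 at an adjusted p under 0.05 and 11 at an unadjusted p under 0.05, beside 0.0248% and 7.95% of all genes. DESeq2 called 1 (Cebpd), beside 0.135% of all genes, and limma-voom 0. Their median log2 fold change was -0.04. Past the limits of the study were 4 of them, Cish, Socs2, Cebpd and Nfil3, all lower in Baf155ΔMF mice, beside 1.11% of all genes. These 4 are in the list that the study chose on these samples, so their direction is not independent evidence. Without Baf155WT mouse 1, edgeR called 11 of 53 tested at an adjusted p under 0.05, beside the 7.77% of all genes. These were Cntfr, Stat2, Cish, Socs2, Sos1, Cebpb, Cebpd, Pim1, Pim3, Hp and Nfil3. At an unadjusted p under 0.05 there were 21 of the 53, beside 2923 of all 12288 genes tested.

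Transcripts of the cytokines themselves were scarce in this resting muscle. Il6, Osm, Il11 and Il27 were at or under 3 counts in every mouse, with Il6 at 0, 2 and 0 counts in Baf155WT mice and 1, 0 and 0 counts in Baf155ΔMF mice. Of 10 ligand genes 4 could be tested, and none was called (0 also at an unadjusted p under 0.05, and 0 by DESeq2 and limma-voom). Ctf1, which encodes cardiotrophin 1, had a log2 fold change of 0.22 with a standard error of 0.19, and Cntf, which encodes ciliary neurotrophic factor, had -0.23 with a standard error of 0.29.

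Of the other receptor chains, Cntfr, which binds ciliary neurotrophic factor, was at 7.58, 10.02 and 11.1 CPM in Baf155WT mice and at 5.87, 5.30 and 8.19 CPM in Baf155ΔMF mice. Its log2 fold change of -0.58 (standard error 0.20) did not pass the edgeR test (adjusted p = 0.601), and the genotypes overlapped. Il11ra1, the IL-11 receptor chain, had a log2 fold change of -0.07 with a standard error of 0.11.

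Of the kinases that act at gp130, Jak1 and Jak2 overlapped between genotypes. Tyk2 was at 12.3, 12.8 and 13.7 CPM in Baf155WT mice and at 11.3, 12.0 and 11.3 CPM in Baf155ΔMF mice, lower in every one. Jak1 had a log2 fold change of 0.12, Jak2 of 0.08 and Tyk2 of -0.16, each with a standard error between 0.09 and 0.12, and 0 of the 4 janus kinases were called at an adjusted or an unadjusted p under 0.05. Of 5 other STAT genes tested, Stat5a had -0.13 and Stat5b 0.16. Stat2, which acts downstream of type I interferon, had -0.62 with a standard error of 0.23 (edgeR adjusted p = 0.601). Stat2 was at 6.61 CPM in Baf155WT mouse 1, within the Baf155ΔMF range of 6.44 to 7.37 CPM, and at 13.3 and 12.1 CPM in Baf155WT mice 2 and 3.

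Among the other SOCS family genes, Cish and Socs2, known as targets of STAT5, were lower in every Baf155ΔMF mouse. Cish was at 37.4, 24.6 and 18.4 CPM in Baf155WT mice and at 3.84, 4.05 and 13.6 CPM in Baf155ΔMF mice, a log2 fold change of -1.92 with a standard error of 0.40 (edgeR adjusted p = 0.367). Socs2 was at 17.0, 24.6 and 20.3 CPM and at 8.97, 13.6 and 14.3 CPM in turn, a log2 fold change of -0.76 with a standard error of 0.18 (edgeR adjusted p = 0.566). The other 4 genes of the family all had values above 0, the highest of them Socs4 with 0.37 (standard error 0.19), and none was called. Lower values in this family were thus found for Socs1, Socs3, Cish and Socs2.

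Other inhibitors of the pathway gave no call. In the list of PIAS proteins and phosphatases 0 of 7 genes were called at an adjusted or an unadjusted p under 0.05, with log2 fold changes of 0.21 for Pias2, 0.20 for Pias1 and -0.50 for Ptpn6, the phosphatase SHP1 of blood cells. The adaptors that link SHP2 to ERK are a separate list. Of these, 0 of 6 were called at an adjusted p under 0.05 and 1 (Sos1) at an unadjusted p under 0.05, beside 0.0248% and 7.95% of all genes. Sos1 was at 41.1, 38.1 and 30.6 CPM in Baf155WT mice and at 47.6, 46.3 and 41.7 CPM in Baf155ΔMF mice, all higher (log2 fold change 0.31, standard error 0.12, edgeR adjusted p = 0.601), and Gab1 and Grb2 had 0.18 and 0.10.

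Among known targets of STAT3, some were lower and others were not. Of 22 listed 18 were tested, 12 with a log2 fold change below 0 and 6 above, and the median was -0.18. edgeR called 0 at an adjusted p under 0.05 and 6 at an unadjusted p under 0.05, beside 7.95% of all genes. Cebpd, a transcription factor induced by STAT3 and by glucocorticoids, was at 26.7, 23.0 and 32.5 CPM in Baf155WT mice and at 10.3, 11.8 and 15.4 CPM in Baf155ΔMF mice. The genotypes did not overlap, and the log2 fold change of -1.13 with a standard error of 0.17 came close to the limit (edgeR adjusted p = 0.0785). It was -1.15 without Baf155WT mouse 1 and -1.27 among the MS13 mice.

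Nfil3, a transcriptional repressor with a part in the circadian clock and in immune cells, was at 22.4, 32.1 and 62.5 CPM in Baf155WT mice and at 13.3, 13.6 and 15.3 CPM in Baf155ΔMF mice (log2 fold change -1.47, standard error 0.30, edgeR adjusted p = 0.367). Pim1, a kinase gene induced by cytokines, was at 14.6, 26.2 and 31.9 CPM and at 14.1, 17.3 and 10.5 CPM in turn (log2 fold change -0.79, standard error 0.26, edgeR adjusted p = 0.601). For both genes the Baf155WT mouse with prefix MS13 was the lowest of its genotype, and among the MS13 mice the log2 fold change was -0.74 for Nfil3 and 0.11 for Pim1. Irf1, an interferon response gene that was named after its values were seen, was on the other side at 0.47 (standard error 0.18, edgeR adjusted p = 0.601).

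**Figure D3:**
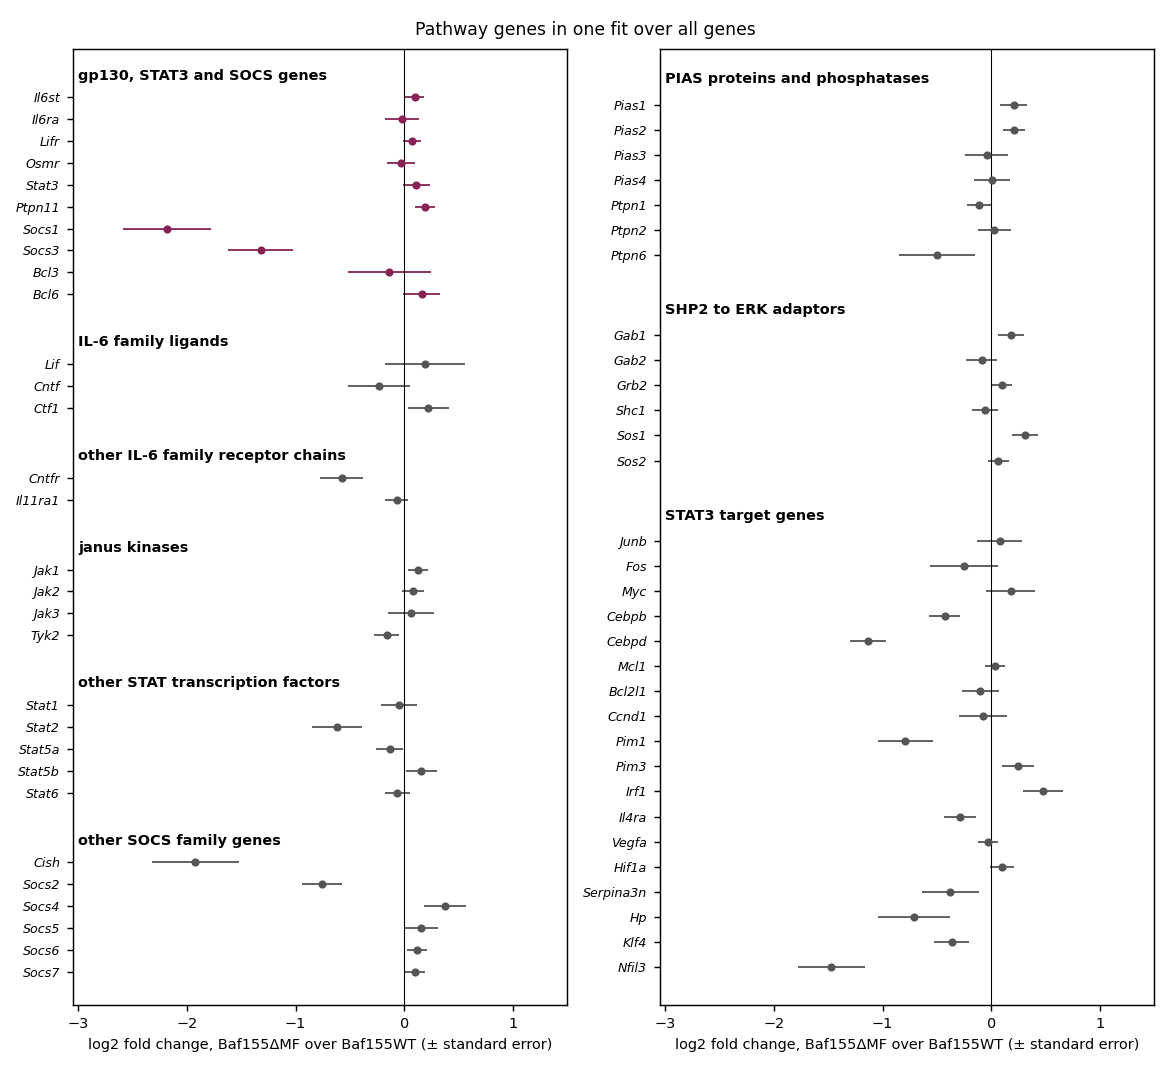
Log2 fold change of Baf155ΔMF over Baf155WT (x axis) with its standard error (bars) for the 10 genes (purple) and for tested genes of 8 pathway lists (grey), all from one edgeR fit. Socs1, Socs3, Cish, Nfil3 and Cebpd lie below -1, and the receptor chains, janus kinases and STAT genes of the lists lie between -0.62 and 0.16.

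Markers of other cell types were compared, since the sample is whole muscle. Myofiber markers summed to 127202, 131071 and 130774 CPM in Baf155WT mice and to 126060, 124812 and 120276 CPM in Baf155ΔMF mice, a log2 ratio of means of -0.07. edgeR called 0 of these 8 at an adjusted p under 0.05. Past the limits of the study was 1 (Myh1, higher in every Baf155ΔMF mouse, log2 fold change 0.49, standard error 0.15), beside 1.11% of all genes. Macrophage markers summed to 126, 361 and 294 CPM in Baf155WT mice and to 115, 114 and 192 CPM in Baf155ΔMF mice. All 8 macrophage markers had a log2 fold change below 0 with a median of -0.90, and none was at 0 counts. edgeR called 0 of them at an adjusted p under 0.05 and all 8 at an unadjusted p under 0.05, beside 0.0248% and 7.95% of all genes. Past the limits of the study was 1 (Cd163), beside 1.11% of all genes. The 8 markers were listed for 1 cell type, so they are not 8 independent calls. Baf155WT mouse 1 had a macrophage sum near that of Baf155ΔMF mice 1 and 2, and it had the highest Socs1 and Socs3 of the 6 mice. In the MS13 mice, 1 Baf155WT mouse against 2 Baf155ΔMF mice, the log2 ratio of the summed macrophage markers was -0.14, that of Socs1 was -2.99 and that of Socs3 was -2.06. The part of macrophages in the values of Socs1 and Socs3 over all 6 mice was not tested. For Stat2, Pim1 and Ptpn6, which were high in Baf155WT mice 2 and 3 as the macrophage markers were, the part of these cells was not tested either.

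Endothelial markers summed to 298, 226 and 237 CPM in Baf155WT mice and to 299, 320 and 296 CPM in Baf155ΔMF mice, and all 6 had a log2 fold change above 0. This is the direction of Il6st, Lifr and Ptpn11, and the part of endothelial cells in those small differences was not tested. Markers of fibro-adipogenic progenitors summed to between 1448 and 2198 CPM with overlap between genotypes, and those of satellite cells to between 10.2 and 13.4 CPM. Lymphocyte markers reached at most 1.84 CPM in sum. Neutrophil and monocyte markers summed to 6.22, 18.3 and 12.0 CPM in Baf155WT mice and to 6.94, 8.62 and 8.42 CPM in Baf155ΔMF mice. Of these, Ly6g, which defines neutrophils, was at 0 in every mouse. Ccr2 was at 4.76, 14.9 and 10.6 CPM in Baf155WT mice and at 5.66, 7.68 and 7.25 CPM in Baf155ΔMF mice.

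**Figure D4:**
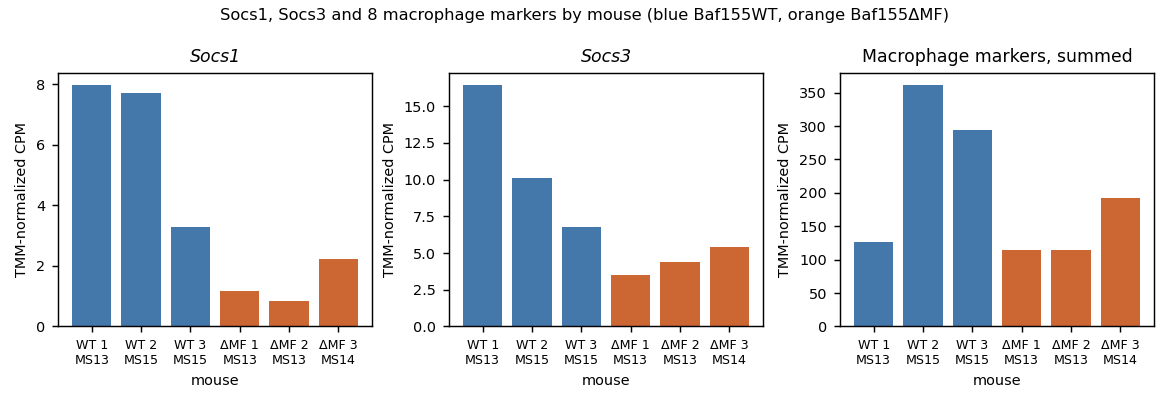
Bars from 0 give the TMM-normalized CPM (y axis) of Socs1, of Socs3 and of 8 macrophage markers in sum in each mouse (x axis, with its title prefix), blue for Baf155WT and orange for Baf155ΔMF. Baf155WT mouse 1 has the highest Socs1 (7.97) and Socs3 (16.4) and a macrophage sum of 126, near the 115 and 114 of Baf155ΔMF mice 1 and 2.

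Some limits of the counting touch single genes. Antisense or overlapping genes are annotated at Il6ra, Stat3 (Stat5a on the opposite strand), Ptpn11, Bcl3 and Bcl6, and whether the counting used strand is not given in the sources used here. No gene overlaps Il6st, Lifr, Osmr, Socs1 or Socs3.

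**Figure D5:**
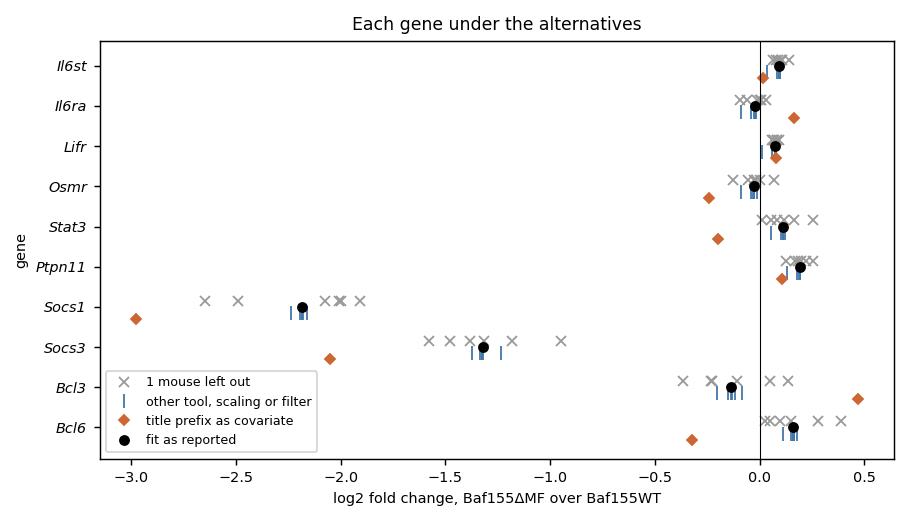
Log2 fold change of Baf155ΔMF over Baf155WT (x axis) for each of the 10 genes (y axis) in the fit as reported (black circle), with 1 mouse left out (grey cross), with another tool, scaling or filter (blue tick) and with the title prefix as a covariate (orange diamond). Socs1 stays between -2.98 and -1.91 and Socs3 between -2.05 and -0.95, while Il6ra, Osmr, Stat3, Bcl3 and Bcl6 have values on both sides of 0.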

How the data were processed

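The authors prepared stranded total RNA libraries from whole hind limb muscles of 6 mice, and sequenced them on an Illumina instrument. The submitters' processing notes name CASAVA 1.8.2, cutadapt 1.10, Bowtie2 2.2.7, TopHat2 2.1.1, RSEM 1.2.30 and limma with mm10. The deposited values are expected counts per gene symbol without normalization, and a gene's expected count can be split among sequences that share reads. They were rounded to whole counts.

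One quasi-likelihood fit by edgeR 4.0.16 (R 4.3.3) tested genotype after TMM normalization and filterByExpr with a minimum count of 10 and a minimum total of 15. Adjusted p-values are Benjamini-Hochberg values for 12116 genes. The procedure was also run on simulated counts, in which no mouse stood apart and the title prefix had no effect. The results here do not rest on that run. Each mouse is a replicate. The floor of 3 counts was 0.230 to 0.351 CPM and, as the binomial interval, covers counting error only. CPM are given as mean ± SD, and log2 CPM for the profiles used a prior count of 2. The fit was repeated by DESeq2 1.42.0 and by voom in limma 3.58.1, under other scalings and filters, with a term for the title prefix, and with 1 mouse left out at a time. Gene positions and exon lengths are from GENCODE M21 and promoters from RefSeq, both on GRCm38.

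The 10 genes, the pathway lists and the marker lists were chosen with earlier results of these data known. Named were all 10 genes, Smarcc1, in each pathway list the up to 3 genes with the smallest p, and the 5 genes most like Socs1 and Socs3, except for items that are not reported here. Cell counts, protein and chromatin data were not analysed here.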

Additional observations from a re-analysis of the deposited data

How the results depend on the processing

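The number of genes called at an adjusted p under 0.05, 3 in the fit as reported, was 22 with DESeq2, 5 with limma-voom, 17 with no filter on low counts, 16 with a term for the title prefix, and 8 where the limit was an adjusted p of 0.1. Of the 10 genes of the set, where 0 were called, 2 were called with DESeq2 (Socs1 and Socs3), 2 with the title prefix (Socs1 and Socs3) and 1 with no filter (Socs1). These 2 genes were chosen by this contrast, so their calls support nothing. Of the pathway lists, where 0 were also called, DESeq2 called Cebpd, and edgeR with no filter called Cish, Cebpd and Nfil3. At the limits of the study there were 4 listed genes (Cish, Socs2, Cebpd and Nfil3), beside 1.11% of all genes. The covariate fits the MS14 mouse by a term of its own, so its genotype estimate rests on 1 Baf155WT mouse against 2 Baf155ΔMF mice.

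With 1 mouse left out, the calls ranged from 0 to 955 genes over all genes and from 0 to 11 over the pathway lists. In the set they ranged from 0 to 2, and these were Socs1 and Socs3 only. Genes of the set and the lists past the limits of the study, Socs1 and Socs3 included, ranged from 6 to 12. The highest values, 955, 11 and 12, came without Baf155WT mouse 1. Without Baf155WT mouse 3, 7 genes were called with Socs1 among them, and without Baf155ΔMF mouse 3 Cish was called. The edgeR test called 0 genes without Baf155WT mouse 2 (451 at an unadjusted p under 0.05) and 0 without Baf155ΔMF mouse 2 (568).

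The sign changed in 5 genes that lay near 0. Il6ra was at 0.17 with the title prefix and 0.17 in the MS13 mice, and between -0.092 and 0.029 with 1 mouse left out. Osmr ranged from -0.13 to 0.070 with 1 mouse left out, and was at -0.24 with the title prefix and -0.24 in the MS13 mice. Stat3 was at -0.20 with the title prefix and -0.20 in the MS13 mice, and Bcl6 was at -0.33 and -0.32. Bcl3 was at 0.47 and 0.47, and between -0.37 and 0.13 with 1 mouse left out. Il6st, Lifr, Ptpn11 and Socs3 kept their sign in all 14 fits and Socs1 in all 13 that tested it. For Socs1 and Socs3, which were chosen by this contrast, this is a description only. The stricter motif TTCCNGGAA was in 1.15% of promoters, where TTCNNNGAA was in 8.30%. Scaling by library size only changed the split of genes past the limits of the study from 37 higher and 98 lower to 13 higher and 111 lower, and limma-voom gave 42 higher and 64 lower, DESeq2 20 higher and 115 lower, and the title prefix 50 higher and 81 lower. The cause of these changes was not tested.

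No paired analysis was possible because the numbers in the sample titles have only the number 2 in common between genotypes, and the mouse numbers used here only name mice in the order of the samples. The title prefix, which holds mice of both genotypes under MS13, was used as a covariate instead.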
